A study of Bos taurus with 16 samples.

Results

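The cytosine positions of 2 genes of the Ras family pathways, RAP1B and SPRED3, were described in endometrial cells of dairy cows after calving, with or without a methionine supplement. All positions that the deposited methylation table assigns to either gene symbol were taken, which gave 79 of 199395 positions, 24 in RAP1B (ENSBTAG00000008967) and 55 in SPRED3 (ENSBTAG00000017678). The genes were selected on their measured methylation, which was highest in the cows that received methionine and became pregnant, so their levels in that group against the others are given as a description and were not tested.

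The samples were brushed from the endometrium with a cytobrush, 4 to 8 h after cows in heat on days 50 to 64 postpartum had been inseminated, in multiparous Holstein-Friesian cows, and their DNA was profiled by reduced representation bisulfite sequencing (RRBS). RRBS cuts the genome with the enzyme MspI and reads the methylated share of the cytosines near the cuts. From day 12 postpartum, CON cows received the basal diet without the supplement and MET cows the same diet with rumen-protected methionine (RPM), a form of the amino acid that passes the rumen, and each cow was later classed by ultrasonography as pregnant (P) or not (noP). Each of the 4 groups, CON_P, CON_noP, MET_P and MET_noP, had 4 libraries, and how many cows each library holds was not given in the sources used here. By the methods, DNA was isolated from more cytobrush samples than there are libraries, and from more of noP than of P cows, so the spread between libraries may not be that between single cows.

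RAP1B is a small GTPase of the Ras family that switches between a GTP-bound and a GDP-bound state and acts in integrin-mediated adhesion and at cell junctions. SPRED3 belongs to the Sprouty-related proteins with an EVH1 domain, which dampen the signal from Ras to RAF and the ERK kinases. Methyl groups on cytosines come from S-adenosylmethionine, which cells make from methionine, and a cytobrush collects a mixture of luminal epithelial cells and leukocytes, each with a methylation pattern of its own.

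The 16 libraries had a mean methylation of 61.3% to 65.1% over all positions, Pearson's r between any 2 of them across positions was 0.914 to 0.965, and no pair of libraries held identical values. Each column of the table names the group and a library number, such as S14, but not the replicate number of the sample labels, so libraries are called by group and library number here. The table holds percentages without read counts, so the depth behind each value is not given beyond the authors' minimum of 10 reads. All coordinates are those of ARS-UCD1.2. The table says that the positions lie in the genes but does not say whether in an exon, intron or UTR.

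The RAP1B positions covered 106 bases of chromosome 5, from 45200719 to 45200824. Mean methylation over the 24 positions in MET_P was 38.8% in library S15, 47.3% in S19, 48.7% in S27 and 41.6% in S31. In CON_P it was 51.2% in S14, 16.4% in S18, 14.5% in S26 and 18.95% in S30. The 4 MET_P libraries lay close together, whereas CON_P held the highest library of all, S14, and 3 libraries far below every MET_P library. In MET_noP the values were 40.1% in S13, 14.2% in S17, 23.4% in S25 and 21.1% in S29. In CON_noP they were 20.4% in S12, 12.04% in S16, 46.7% in S24 and 28.1% in S28. Each of the other groups thus had 1 library at or near the MET_P level and 3 below it, and no group was free of overlap with MET_P.

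The group means of RAP1B were 44.1% ± 4.71 in MET_P, 26.8% ± 14.8 in CON_noP, 25.3% ± 17.4 in CON_P and 24.7% ± 10.99 in MET_noP (SD, n = 4 libraries each). MET_P was 18.8 percentage points above CON_P, with the MET_P library the higher in 12 of the 16 pairs of libraries. Against MET_noP it was 19.4 percentage points higher, in 15 of 16 pairs. The mean levels of the other groups lay within 2.08 percentage points of each other, less than the SD of any of them. With 1 library left out at a time, the difference of MET_P from CON_P ran from 15.2 to 27.4 percentage points, the largest without the CON_P library S14.

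**Figure D1:**
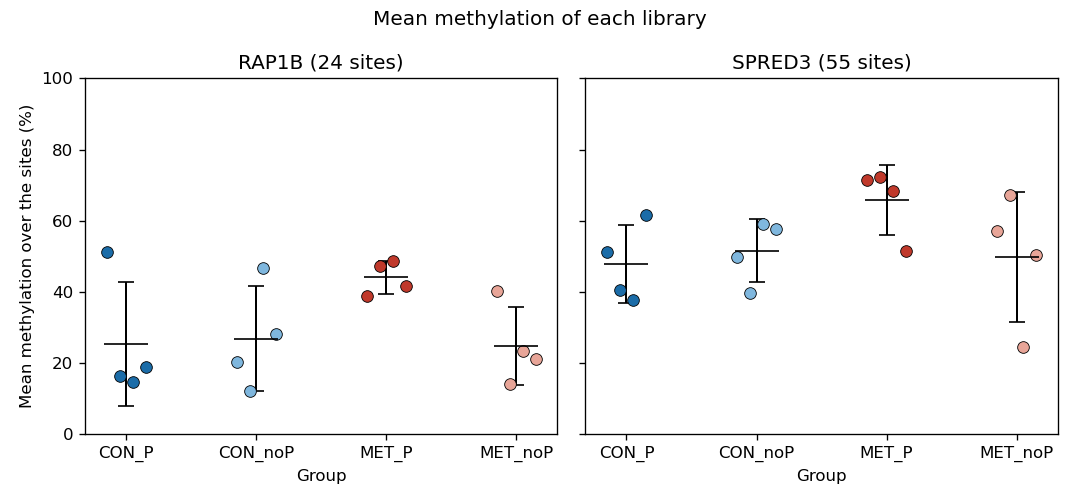
Mean methylation (%) of each library (points) over the 24 RAP1B positions on the left and the 55 SPRED3 positions on the right, by group, with the group mean and SD over 4 libraries in black. MET_P has the highest group mean in both genes, 44.1% and 65.9%, and overlaps each other group by at least 1 library.

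SPRED3 was measured over a longer stretch, 555 bases of chromosome 18 from 48203963 to 48204517. Mean methylation over its 55 positions in MET_P was 71.3% in S15, 72.3% in S19, 68.4% in S27 and 51.4% in S31. In CON_P it was 51.2% in S14, 40.5% in S18, 37.6% in S26 and 61.7% in S30. Of the MET_P libraries, 3 lay above every CON_P library, and S31 lay among the higher CON_P values. MET_noP libraries had 57.0% in S13, 67.3% in S17, 24.5% in S25 and 50.3% in S29. CON_noP libraries had 49.8% in S12, 39.7% in S16, 59.1% in S24 and 57.8% in S28. MET_noP was the widest group of SPRED3, since S25 was the lowest and S17 the fourth highest of all libraries.

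The group means of SPRED3 were 65.9% ± 9.80 in MET_P, 51.6% ± 8.90 in CON_noP, 49.8% ± 18.2 in MET_noP and 47.8% ± 11.01 in CON_P (SD, n = 4 libraries each). MET_P exceeded CON_P by 18.1 percentage points, in 15 of 16 pairs of libraries. It exceeded MET_noP by 16.1 percentage points, in 14 of 16 pairs, but by only 7.67 percentage points without the MET_noP library S25. The difference between P and noP cows was 20.9 percentage points larger under methionine than under the control diet in RAP1B, and 19.9 percentage points larger in SPRED3, which is 11.5 without S25. In these mixed cells, a methylation change within 1 cell type and a change in the share of cell types cannot be told apart.

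Along RAP1B the positions fell into 3 kinds of methylation level. The first position, 45200719, ranged from 2.41% to 9.68% over the libraries and was the lowest of the gene on average. Together with 45200769 it stayed between 1.11% and 12.2% in every library of every group, and the mean of this pair of positions was 4.26% in CON_P, 4.46% in MET_P, 5.96% in MET_noP and 6.35% in CON_noP. The group difference of the gene was therefore not seen at these 2 positions.

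Between them lay 6 positions, from 45200727 to 45200760, that moved as a unit, with a median Pearson's r of 0.997 between positions over the 16 libraries, a description of neighbouring positions in the same libraries. Their mean in MET_P was 50.8% in S15, 68.8% in S19, 68.2% in S27 and 57.1% in S31. In CON_P it was 75.4% in S14, 19.8% in S18, 27.8% in S26 and 28.1% in S30. In MET_noP it was 55.9% in S13, 20.5% in S17, 26.9% in S25 and 22.3% in S29. All MET_P libraries were above 3 of the 4 libraries of each of these groups. CON_noP had 29.3% in S12, 15.98% in S16, 53.0% in S24 and 39.9% in S28. The highest position of the gene on average, 45200760, and those with the largest difference from CON_P (45200736, 24.4 percentage points) and from MET_noP (45200755, 30.3 percentage points) were all in this run.

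**Figure D2:**
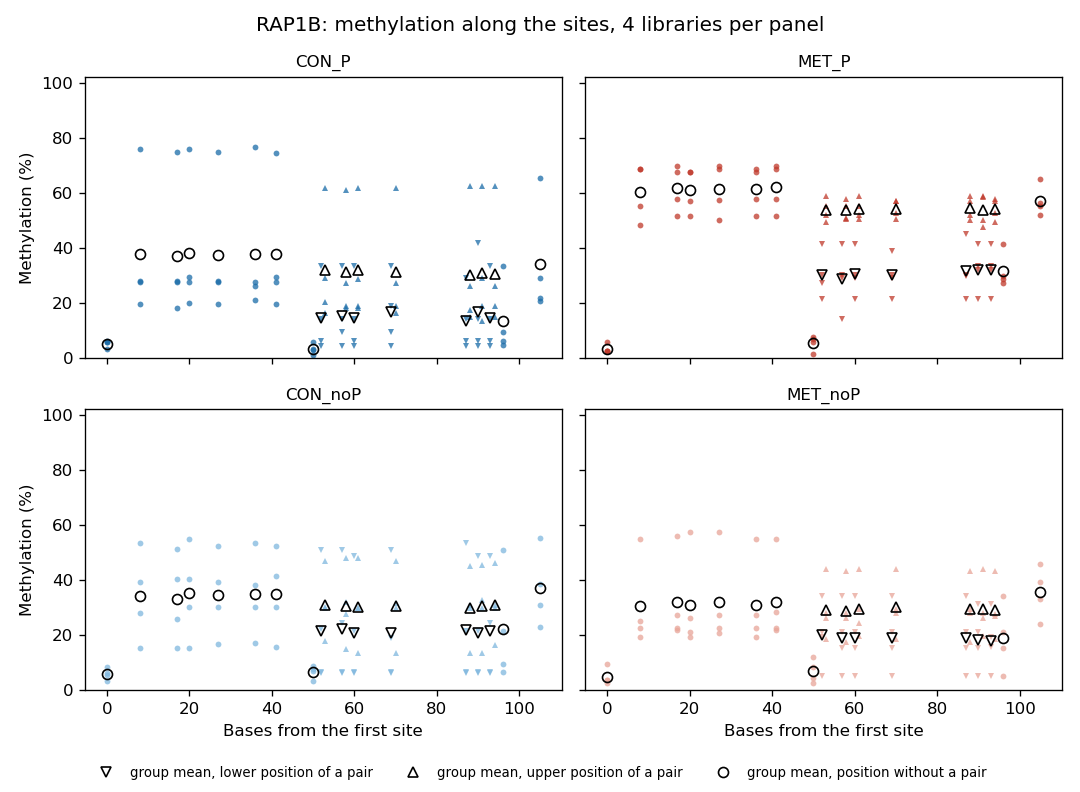
Methylation (%) of each RAP1B position against its distance in bases from the first one, with 1 panel per group, small symbols for the 4 libraries and open symbols for the group mean. Triangles pointing down and up mark the lower and upper cytosine of a CpG measured on both strands, and circles mark the other positions. The positions at 0 and 50 bases are low in every group, and the run of 6 between them has group means of 61.2% in MET_P and 31.4% to 37.8% in the others.

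The second part of the RAP1B stretch held 7 CpGs measured at both of their cytosines, on positions 1 base apart from 45200771 to 45200813. The cytosine of the lower position lies on the forward strand and that of the upper position on the reverse strand of the same CpG. The 7 upper positions had a mean of 36.3% over the libraries and the 7 lower positions 21.5%, a gap of 14.7 percentage points ± 10.3 (SD, n = 16 libraries). The upper positions were higher in 15 of 16 libraries, from 3.95 percentage points in the CON_P library S18 to 36.0 in the MET_P library S15, and the gap was -3.85 in the CON_noP library S24. This comparison was chosen after the values were seen, so it is a description and gets no test. Depth may differ between the strands, and its part in the gap was not tested. Over all 10344 pairs of positions 1 base apart, some of which may join neighbouring CpGs, the median absolute difference was 2.08 percentage points. Of these pairs, 6.45% had 10 percentage points or more, as all 7 of RAP1B did. The 7 RAP1B pairs moved together, with a lowest Pearson's r over the 16 libraries of 0.968 between lower and 0.992 between upper positions. They are therefore not 7 separate observations.

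MET_P had the widest mean gap in RAP1B, 23.2 percentage points ± 11.4, against 16.01 ± 10.5 in CON_P, 10.5 ± 2.17 in MET_noP and 9.13 ± 10.9 in CON_noP (SD, n = 4 libraries each). The upper positions of MET_P were at 56.4% in S15, 58.2% in S19, 51.6% in S27 and 49.6% in S31. Those of MET_noP were at 43.8% in S13, 18.5% in S17, 28.2% in S25 and 27.2% in S29. MET_P and MET_noP thus did not overlap at the upper positions. The lower positions of MET_P were at 20.4% in S15, 29.7% in S19, 41.6% in S27 and 31.2% in S31. Those of MET_noP were at 33.5% in S13, 5.26% in S17, 20.3% in S25 and 16.5% in S29, so the groups overlapped there.

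**Figure D3:**
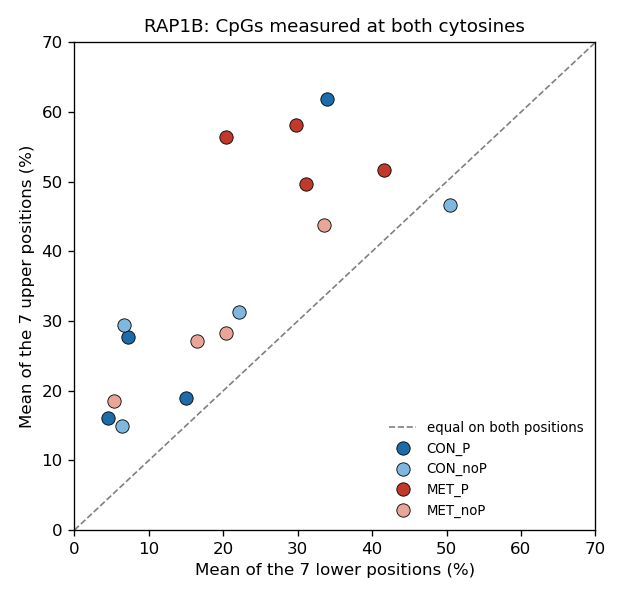
Mean methylation (%) of the 7 upper positions against that of the 7 lower positions of the RAP1B CpGs measured at both cytosines, 1 point per library, coloured by group. All libraries but the CON_noP library S24 lie above the dashed line of equal values, by up to 36.0 percentage points, and the MET_P points are all at or above 49.6% on the vertical axis.

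The last position of RAP1B, 45200824, had 57.1% ± 5.56 in MET_P, 37.0% ± 13.9 in CON_noP, 35.6% ± 9.18 in MET_noP and 34.2% ± 21.1 in CON_P (SD, n = 4 libraries each). The only position without a gene within 10000 bases, 111 bases further on at 45200935, had group means of 8.94% to 11.8%. Its Pearson's r with the RAP1B mean over the 16 libraries was -0.023. The higher level of MET_P was thus not seen at this next measured position.

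Position by position, RAP1B was higher on average in MET_P than in CON_P at 23 of 24 positions, beside 53.6% of all positions in the table. At 22 of them it was higher by at least 10 percentage points, beside 6.46% of all positions. Because the rule chose the gene for this contrast, nothing is read from these shares. At no RAP1B position did MET_P and CON_P not overlap, beside 1.92% of all positions with every MET_P library above every CON_P library and 1.17% with every one below. Without the CON_P library S14 the groups did not overlap at 21 of the 24 positions, beside 3.92% of all positions. S14 was left out after its high RAP1B values were seen, which favours this count, so nothing is read from it. Against MET_noP the mean was higher at 22 positions, beside 51.8% of all, and by at least 10 percentage points at 21, beside 4.08% of all. The groups did not overlap at 8 positions, the 7 upper positions and the last, beside 1.64% of all positions.

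SPRED3 was higher on average in MET_P at 54 of 55 positions against CON_P, beside 53.6% of all positions. Against MET_noP it was also higher at 54 of 55, beside 51.8% of all. By at least 10 percentage points it was higher at 52 and 50 positions, respectively, beside 6.46% and 4.08% of all. Of both genes 0 positions were as much lower in MET_P, beside 5.54% and 4.49% of all positions. Because the genes were chosen for these contrasts, nothing is read from these counts or from those that follow. All MET_P libraries were above those of CON_P at 5 positions, beside 1.92% of all, and above those of MET_noP at 8, beside 1.64% of all, and at 0 positions below MET_noP, beside 1.26% of all positions. Without the MET_P library S31, the counts were 28 and 21, beside 3.62% and 3.25% of all positions. Without the MET_noP library S25, the count against MET_noP stayed at 8, beside 3.04% of all positions. These libraries were picked after their values were seen, so nothing is read from these counts. The position 48204486 was the exception in both contrasts, with 42.7% ± 7.08 in MET_P, 52.7% ± 9.97 in CON_P, 52.2% ± 15.7 in MET_noP and 46.7% ± 9.12 in CON_noP (SD, n = 4 libraries each).

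That exception was 1 cytosine of the only SPRED3 CpG measured at both positions. The upper position, 48204487, differed from the lower one by 26.3 percentage points in MET_P, by 1.71 in CON_noP, by -2.33 in MET_noP and by -6.66 in CON_P. In single libraries the gap ran from -29.2 to 43.4 percentage points, with the upper position the higher in 8 of 16 libraries. The CpG therefore had no common direction between its cytosines, unlike the 7 of RAP1B.

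Gaps of over 100 bases divided the SPRED3 positions into 3 stretches, of 11, 18 and 26 positions, a division made after the data were seen. The first, from 48203963 to 48204022, had 72.3% ± 3.80 in MET_P, 61.7% ± 19.03 in CON_noP, 55.3% ± 11.96 in MET_noP and 50.2% ± 14.3 in CON_P (SD, n = 4 libraries each). In MET_P its libraries were at 73.1% in S15, 75.9% in S19, 66.9% in S27 and 73.2% in S31, the narrowest range of any group. S31 was thus like the other MET_P libraries in this stretch. The positions with the largest difference of SPRED3 lay here, 48204013 against CON_P, 29.01 percentage points, and 48203977 against MET_noP, 24.5 percentage points.

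The second stretch, from 48204155 to 48204237, was lower in each group than the first, with 59.4% ± 13.6 in MET_P, 49.2% ± 12.6 in CON_noP, 43.6% ± 20.6 in MET_noP and 41.7% ± 19.03 in CON_P (SD, n = 4 libraries each). In MET_P it had 67.8% in S15, 68.9% in S19, 61.2% in S27 and 39.6% in S31. CON_P was at 49.6% in S14, 26.3% in S18, 26.01% in S26 and 64.9% in S30. In this stretch S31 was below 2 of the CON_P libraries, and S30 of CON_P was above 2 of the MET_P libraries. Of all libraries, S25 of MET_noP was the lowest, at 15.9%.

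The last of the 3 stretches, from 48204363 to 48204517, had 67.6% ± 11.6 in MET_P, 51.7% ± 20.2 in MET_noP, 50.9% ± 4.38 in CON_P and 49.0% ± 9.35 in CON_noP (SD, n = 4 libraries each). In MET_P it had 73.0% in S15, 73.1% in S19, 74.0% in S27 and 50.2% in S31, so 3 libraries were nearly equal and S31 was far below them. It held both the lowest position of SPRED3, 48204363 with group means of 19.4% to 36.0%, and the highest, 48204499 with 68.6% to 86.3%. Over the 16 libraries, Pearson's r was 0.819 between the first and second stretch, 0.739 between the second and the third and 0.544 between the first and the third. These are descriptions over libraries in which all stretches share the same DNA.

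**Figure D4:**
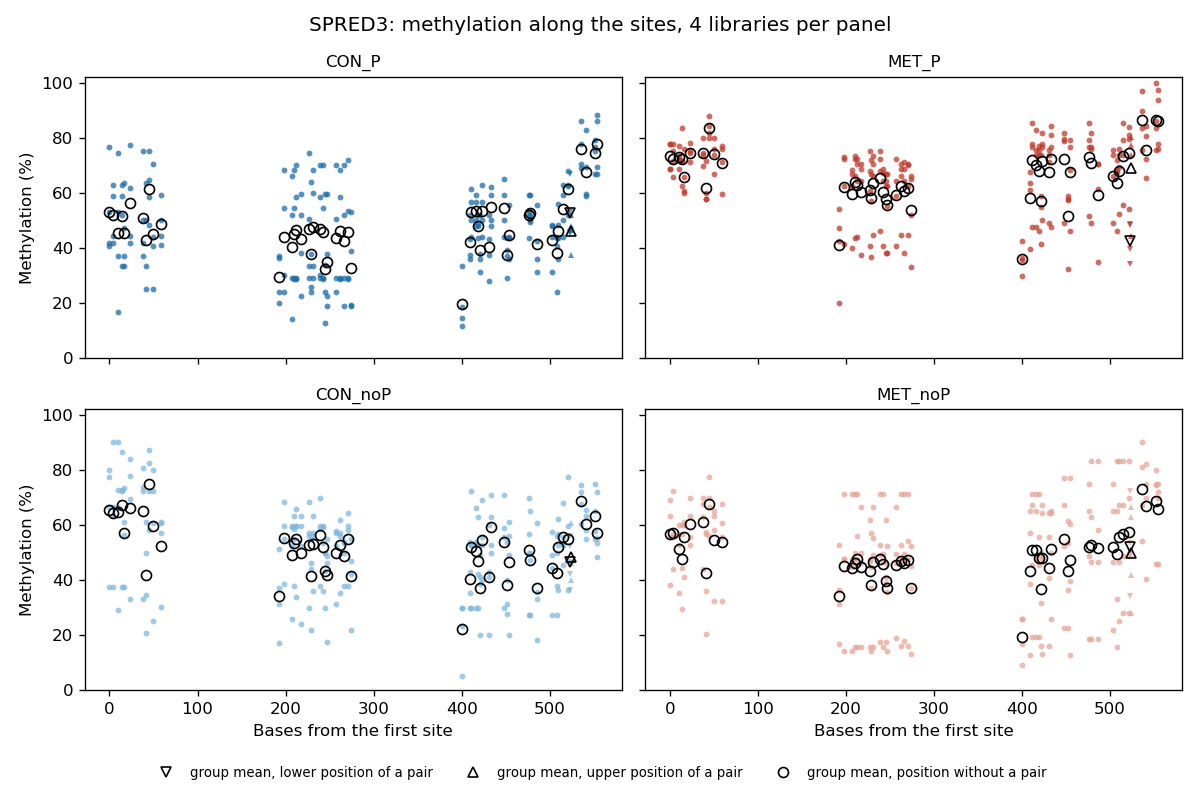
Methylation (%) of each SPRED3 position against its distance in bases from the first one, with 1 panel per group, small symbols for the 4 libraries and open symbols for the group mean. Triangles mark the cytosines of the CpG measured on both strands. The 3 stretches are set apart by gaps without measured positions, and the means of the first are 72.3% in MET_P against 50.2% to 61.7% in the other groups.

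Beyond the last SPRED3 position, 4 positions without a gene followed within 106 bases, with 82.0% on average in MET_P, 73.1% in MET_noP, 72.5% in CON_P and 70.1% in CON_noP. The nearest of them, 9 bases on, had a Pearson's r of 0.551 with the SPRED3 mean over the 16 libraries. On the other side, the nearest measured gene was GGN, a gene known for its expression in germ cells, with 15 positions, the nearest 8568 bases before the first of SPRED3. GGN had 35.5% in MET_P and 30.4% to 31.5% in the other groups.

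The positions of both genes varied between libraries more than was usual in the table. Among positions with a mean of 20% to 80%, the SD over all 16 libraries had a median of 16.01 percentage points over 22 RAP1B positions and 16.7 over 55 SPRED3 positions, beside 10.8 over all 68404 such positions, with the group differences for which the genes were chosen included. The range between the lowest and highest library was 7.27 to 60.4 percentage points in RAP1B and 37.3 to 73.3 in SPRED3.

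Within the control diet, the pregnancy outcome was compared as a contrast the choice of genes did not use, although CON_P is also part of one that it did. RAP1B had 25.3% in CON_P and 26.8% in CON_noP, a difference of -1.51 percentage points (two-sided exact permutation test over 70 splits, p = 0.857). With 4 libraries against 4 this test cannot give a p under 0.0286, and its 95% interval of the difference ran from -32.1 to 39.1 percentage points. SPRED3 differed by -3.84 percentage points between CON_P and CON_noP (exact permutation test, p = 0.686, 95% interval -21.4 to 21.9). Both intervals include differences as large as those seen in MET_P, in either direction. Without the CON_noP library S24 the RAP1B difference turned to 5.11 percentage points.

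Fitted across 8708 genes with limma on the M scale, a log2 ratio of the methylated to the unmethylated share, the difference between CON_P and CON_noP was -0.18 (SE 0.66) in RAP1B and -0.24 (SE 0.39) in SPRED3, with an adjusted p of 0.9991 for both. At single positions, 0 of the 79 passed an adjusted p of 0.05 with limma, as did 0 of all 199395. RAP1B was on average higher in CON_P at 12 of 24 positions and SPRED3 at 16 of 55, beside 55.4% of all. No position of RAP1B and 2 of SPRED3 were higher by at least 10 percentage points, and 0 and 10 lower, beside 5.96% and 2.47% of all. The groups overlapped at each of the 79 positions, beside 1.22% of all positions with CON_P higher and 0.77% with CON_P lower without overlap. At an unadjusted p of 0.05, 1 position was higher in CON_P and 0 lower, beside 2.53% and 1.4% of all positions. That position was the last of SPRED3, 48204517, with 77.6% ± 11.2 in CON_P and 57.3% ± 10.2 in CON_noP (SD, n = 4 libraries each), an M difference of 1.44 (SE 0.58, limma, adjusted p = 1), and the CON_P and CON_noP libraries overlapped there.

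The choice of genes did not use the contrast between diets in cows without pregnancy either, although MET_noP is part of one that it did. RAP1B was -2.08 percentage points different in MET_noP against CON_noP (two-sided exact permutation test, p = 0.8, 95% interval -32.4 to 28). For SPRED3 this difference was -1.84 percentage points (p = 0.886 by the exact permutation test, 95% interval -34.5 to 27.5). The limma fit across genes gave an M difference of -0.09 (SE 0.56, adjusted p = 0.9977) in RAP1B and -0.14 (SE 0.54, adjusted p = 0.99) in SPRED3. No position of either gene passed an unadjusted p of 0.05 in this contrast (0 of 79), beside 3.36% of all positions higher and 1.77% lower in MET_noP. RAP1B was on average higher in MET_noP at 1 of 24 positions and SPRED3 at 24 of 55, beside 57.3% of all. By at least 10 percentage points, 1 SPRED3 position was higher and 3 were lower, beside 7.45% and 2.29% of all, and again the groups overlapped at each of the 79 positions, beside 1.85% higher and 0.903% lower without overlap. The direction of these small differences was not stable. In RAP1B it turned to 4.54 percentage points without the CON_noP library S24, and in SPRED3 to 6.59 without the MET_noP library S25.

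RAP1B and SPRED3 did not move as one across libraries. Pearson's r between their means was 0.498 over the 16 libraries (Spearman's rho 0.468), 0.510 without the 2 libraries farthest from the median of RAP1B and 0.266 after the group means were removed. S14 of CON_P shows this, with the highest RAP1B level of all libraries and only the tenth highest SPRED3 level. RAP1B had an r of 0.544 with the mean over all positions of a library, and SPRED3 an r of 0.003. These and the following values describe libraries that share their DNA, the group differences included.

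Among 5726 other genes with at least 5 positions, those whose mean methylation over the 16 libraries was most like RAP1B were SPNS1 (Pearson's r 0.827), WNT3A (0.799), SMARCA1 (0.795), MYH10 (0.780) and BEX3 (0.777). WNT3A codes for a secreted WNT ligand, SMARCA1 for a chromatin remodelling ATPase and MYH10 for a non-muscle myosin heavy chain. Only SPNS1 had an r over 0.8. Their range over the libraries was narrower than that of RAP1B, from 45.5% to 64.8% in SPNS1 and from 32.3% to 51.8% in WNT3A.

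SPRED3 had far more genes with a like pattern, 56 with an r over 0.8. The nearest was SPI1 (r 0.932), the gene of the transcription factor PU.1 of myeloid and B cells, followed by EPHB2 (0.911), an ephrin receptor, LRRC74B (0.905), SBK1 (0.900), a kinase gene, and SMARCD3 (0.888), a subunit of chromatin remodelling complexes. SPI1 methylation over its 29 positions was 72.0% ± 3.76 in MET_P, 65.8% ± 7.23 in MET_noP, 64.7% ± 4.46 in CON_noP and 62.8% ± 4.81 in CON_P (SD, n = 4 libraries each). In SPI1 as in SPRED3, S25 of MET_noP was the lowest library. After the group means were removed, r between the genes was 0.916.

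SPI1 is also 1 of 12 leukocyte genes listed as cell type markers, of which 7 had 128 positions in the table. Mean methylation over these positions was 57.3% to 60.5% in MET_P, 51.2% to 60.6% in MET_noP, 49.5% to 64.2% in CON_P and 55.7% to 57.3% in CON_noP. Its r over the 16 libraries was 0.656 with RAP1B, 0.530 without the 2 libraries farthest from the median of the list, and 0.005 with SPRED3. The CON_P library S14, the highest of all in RAP1B, was also the highest in this list, at 64.2%, and in the epithelial list, at 46.5%. By gene the list did not move as one, since with SPRED3 r was 0.932 for SPI1, 0.732 for CD247, a T cell receptor subunit, -0.723 for ITGB2, the integrin beta chain of leukocytes, and 0.036 for PTPRC, which codes for CD45. PTPRC had an r of 0.638 with RAP1B.

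**Figure D5:**
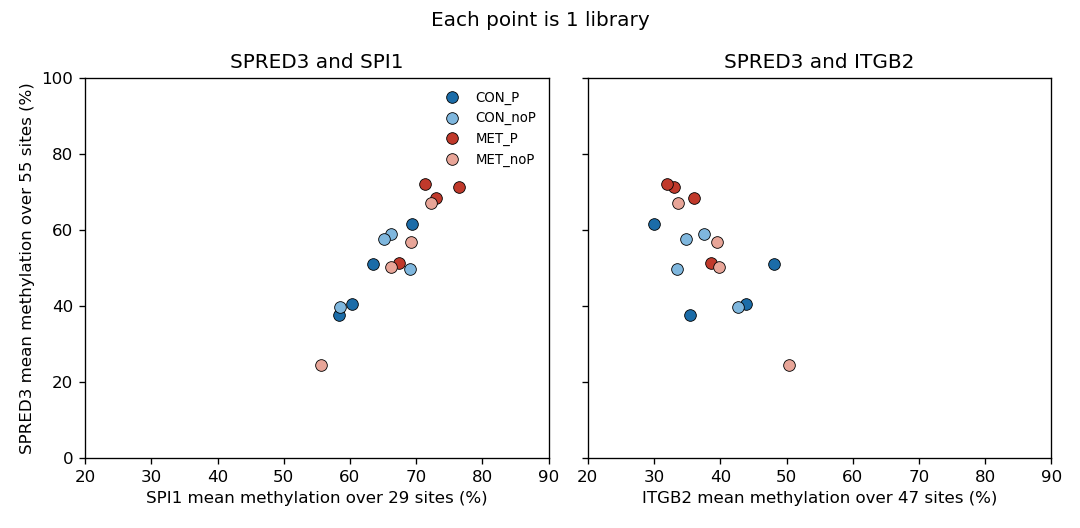
Mean methylation (%) of the 55 SPRED3 positions against that of 29 positions in SPI1 (left) and 47 positions in ITGB2 (right), 1 point per library, coloured by group. SPRED3 runs with SPI1 (r 0.932) and against ITGB2 (r -0.723) over the 16 libraries, and the MET_noP library S25 stands at the low end of SPRED3 in both panels.

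Of 8 epithelial markers, 6 had 41 positions, among them KRT8, KRT18, MUC1 and ELF3. Their mean methylation was 18.2% to 28.95% in MET_P, 15.8% to 37.9% in MET_noP, 15.9% to 46.5% in CON_P and 18.7% to 30.5% in CON_noP. Its r was -0.564 with SPRED3 and 0.220 with RAP1B. The stromal list (4 of 6 genes measured, 65.5% to 71.8% over all libraries) and the endothelial list (4 of 4 genes, 81.9% to 86.2%) varied less. Methylation of a marker is not a cell count, and the part of cell composition in the levels of RAP1B and SPRED3 was not tested.

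Around RAP1B in its pathway, 27 of 32 listed genes that activate, inhibit or act downstream of RAP1 were in the table, and 24 had at least 2 positions and were fitted. The list leaves out RAP1B itself. In neither tested contrast did a gene of the list pass an adjusted p of 0.05 with limma, and 0 of all 8708 genes did. At an unadjusted p of 0.05, 1 gene was higher and 0 lower in CON_P than in CON_noP, beside 2.76% and 1.16% of all genes. In MET_noP against CON_noP, 4 were higher and 1 lower, beside 4.33% and 1.57% of all genes. By its mean, the list had 15 of 24 genes higher in each of these contrasts, beside 59.2% and 63.1% of all genes. The median difference of the list was 0.766 and 0.302 percentage points in these contrasts, beside 0.440 and 0.632 over all genes.

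APBB1IP, the adaptor RIAM that links RAP1 to talin, had 10.02% ± 5.94 in CON_noP, 19.6% ± 9.06 in CON_P, 23.8% ± 11.9 in MET_noP (SD, n = 4 libraries each) and 13.4% in MET_P over its 5 positions. Its limma adjusted p was 0.9991 between CON_P and CON_noP and 0.8083 between MET_noP and CON_noP. RASIP1, a RAP1 and Ras interacting protein of endothelial cells, had 53.4% ± 3.62 in MET_noP and 42.1% ± 6.84 in CON_noP over 53 positions (SD, n = 4 libraries each, limma, adjusted p = 0.811). SIPA1L1, a GTPase activating protein for RAP1, had 82.5% ± 6.06 in MET_noP and 72.0% ± 10.8 in CON_noP (SD, n = 4 libraries each, limma, adjusted p = 0.8083). DOCK4, an exchange factor, had 65.3% ± 9.48 in CON_P and 72.7% ± 4.22 in CON_noP (SD, n = 4 libraries each), and TLN2, a talin gene, 48.0% ± 9.33 and 42.3% ± 1.17, both with a limma adjusted p of 0.9991. Unlike RAP1B, APBB1IP was lower in MET_P than in CON_P and MET_noP on average. In the contrasts for which RAP1B was chosen, 16 of 24 genes had a higher mean in MET_P than in CON_P and 16 than in MET_noP, beside 60% and 55.7% of all genes. Of the list, 0 genes passed an unadjusted p of 0.05 between MET_P and CON_P, beside 3.94% of all genes higher and 2.54% lower. Between MET_P and MET_noP 2 were higher and 1 lower, beside 3.34% and 2.18%.

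Of the 44 genes listed for the signal from Ras to ERK, the branch that SPRED proteins dampen, 31 were in the table and 29 were fitted. Between CON_P and CON_noP, 0 passed an unadjusted p of 0.05, beside 2.76% of all genes higher and 1.16% lower. Between MET_noP and CON_noP 1 was higher and 0 lower, beside 4.33% and 1.57% of all genes. None of the list (0 of 29) passed an adjusted p with limma in either, and its median difference was 0.102 and 0.139 percentage points, respectively, beside 0.440 and 0.632 over all genes. Among its genes with at least 5 positions, the scaffold gene KSR1 had the largest difference between CON_P and CON_noP, with 85.6% ± 1.14 and 83.6% ± 2.38 (SD, n = 4 libraries each), followed by DAB2IP and RASAL3, which code for GTPase activating proteins of Ras, with 1.57 and 1.21 percentage points more in CON_P. ARAF, a RAF kinase gene on chromosome X, had 30.3% ± 2.86 in MET_noP and 36.1% ± 3.01 in CON_noP (SD, n = 4 libraries each, limma, adjusted p = 0.8642). The adaptor gene SHC1 was 3.30 percentage points higher and RASAL2 -2.87 percentage points different in MET_noP against CON_noP, with adjusted p-values of 0.9513 and 0.9724 from limma. In the contrasts for which SPRED3 was chosen, 0 genes of the list passed an unadjusted p of 0.05 between MET_P and CON_P, beside 3.94% of all genes higher and 2.54% lower. Between MET_P and MET_noP 3 were higher and 0 lower, beside 3.34% and 2.18% of all genes.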

How the data were processed

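Endometrial cytobrush DNA of the 4 groups was profiled by RRBS in 16 libraries. After trimming with Trim Galore in RRBS mode, the authors used Bismark (bowtie2) for alignment to ARS-UCD1.2 and SAMtools to merge runs, and called the percent methylation of single positions in SeqMonk. The deposited values are these percent values, without normalization between libraries and without read counts, for positions with at least 10 reads. Depth at each position in each library is therefore not given, and intervals cover only the spread between libraries, which may be technical. Some values moved in steps that few reads would give, such as 20%, 30%, 40% and 50% for S12 in the third stretch of SPRED3. By the paper, raw reads and CpG calls were on average highest in MET_P, and the bases left after adapter removal in MET_noP. Whether depth bears on the levels of the groups was not tested. Positions without a valid value or at zero had been discarded by the authors, so the lowest levels are underrepresented. Only positions near MspI cuts are seen by RRBS.

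Here, group names came from the line above the table's header. Positions were averaged per gene and library. Two-sided exact permutation tests compared the group means of the libraries, with 95% intervals from the inverted test, in 4 comparisons without adjustment. Each position, and each of 8708 genes with at least 2 positions, was fitted with limma 3.58.1 in R 4.3.3 on M = log2((percent + 1)/(100 - percent + 1)) for the 8 libraries compared, with Benjamini-Hochberg adjustment over all positions or genes. The fit was tested on simulated data. The fits read the values with version 1.17.8 of data.table. Averages, permutation tests and plots were made with scipy 1.17.1, matplotlib 3.10.9, pandas 2.3.3 and numpy 2.4.6 under Python 3.11.15.

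The genes, gene lists and marker lists were chosen with earlier results of these data known. By the rule for names, the text gives the first and last position of each gene, those with the highest and lowest mean and with the largest and smallest difference of MET_P from CON_P and MET_noP, all positions within 10000 bases, the 5 genes most like each gene in pattern, and per pathway list the 3 genes with at least 5 positions and the largest differences in each tested contrast. Other positions, the CpGs measured at both cytosines, CD247, ITGB2 and PTPRC were named after their values were seen. Alternatives were the mean on the M scale, the median, merged strands, libraries centred on the same median, percentages without transformation, an offset of 0.1, moderation with trend, all libraries in 1 model, a replicate block and each library left out in turn. Sequences were not analysed here, since the reference used for gene names is of another build.

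The columns carry library numbers but not the replicate numbers of the labels. Sets of consecutive library numbers (S12 to S15, S16 to S19, S24 to S27 and S28 to S31), each with 1 library of every group, were used as the block.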

Additional observations from a re-analysis of the deposited data

Results flagged for a closer look

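For each gene mean, kind of RAP1B position and SPRED3 stretch, a library was singled out where it stood apart from the other 3 of its group by more than Dixon's 95% criterion for 4 values. This was so in 3 of 36 sets. Chance alone would mark about 1 in 20 independent sets. These sets share positions, since each gene mean holds those of its parts, so that rate does not apply to the count. The CON_P library S14 stood apart with a RAP1B mean of 51.2%, against 14.5% to 18.95% in the other CON_P libraries, and with 75.4% over the 6 positions before the paired CpGs, against 19.8% to 28.1%. In the third stretch of SPRED3, the MET_P library S31 stood apart with 50.2%, against 73.0% to 74.0%. S14 was also the highest library of all in the epithelial list, at 46.5%, and in the leukocyte list, at 64.2%. By single position, 24 of 316 sets of 4 values (7.59%) held a library that stood apart.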

How the results depend on the processing

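RAP1B and SPRED3 kept a higher mean in MET_P than in CON_P and MET_noP under every alternative run, with each library left out as well. Of these alternatives, the replicate block could not change a difference of group means. Left out 1 at a time, the libraries gave 15.2 to 27.4 (against CON_P) and 15.9 to 24.5 (against MET_noP) percentage points in RAP1B, and 14.7 to 22.9 and 7.67 to 21.9 in SPRED3. The diet difference of the outcome effect ran from 14.3 to 29.5 in RAP1B and from 11.5 to 25.8 in SPRED3. The small differences of the other contrasts changed sign under at least 1 setting, in SPRED3 between CON_P and CON_noP only with the third stretch alone. CON_P minus CON_noP ran from -10.1 to 5.11 in RAP1B and from -8.50 to -0.456 in SPRED3, and MET_noP minus CON_noP from -7.21 to 4.54 and from -7.67 to 6.59. With only the upper positions, CON_P minus CON_noP in RAP1B was 0.597, and with only the third stretch of SPRED3 it was 1.93 and MET_noP minus CON_noP 2.71, choices made after the data were seen. None of these passed its exact permutation test under any setting. The count of positions past an unadjusted p between CON_P and CON_noP was 1, but 2 with untransformed percentages, 0 with all libraries in 1 model and 0 to 4 without 1 library (4 without S16, 2 without S30, 0 without S24 or S18). The 1 position was higher in CON_P, but those past the threshold without S16, S26 or S28 were lower there (0 higher), and without S30 1 of the 2 was higher. Between MET_noP and CON_noP it was 0, and 0 to 3 without 1 library (3 lower in MET_noP without S16, 1 higher without S25). The causes were not tested.

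No paired analysis by the labels' replicate number was possible because the columns carry none. With sets of consecutive library numbers as a replicate block, the count between CON_P and CON_noP was 0, and no difference of gene means changed. The sets did not pair the libraries, since the correlation of their deviations from the group means was -0.132 to 0.117 within sets and over 0.1 in 2 of 24 pairs. Depth at single positions is not given, since the values are percentages without read counts.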
